A study of Mus musculus with 50 samples.

Results

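The report concerns 10 genes of the integrated stress response, described across the single blood-forming cells of mice that had received 1 haematopoietic stem cell (HSC) each. They are Atf4, Atf5, Ddit3, Trib3, Nupr1, Chac1, Asns, Sesn2, Ppp1r15a and Ddit4, which are 10 of the 19224 gene symbols in the count table. The members were chosen by gene name with levels in these cells already known, so their levels are given as a description and no test was made on them.

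The labels list 50 samples, 10 taken 1 month after transplantation, 26 at 4 months and 14 at 12 months, of which 15 combined spleen with bone marrow and the others were of bone marrow alone. In every group a single HSC from a β-actin-GFP transgenic B6-Ly5.2 donor was injected together with whole bone marrow of B6-Ly5.2 mice into lethally irradiated B6-Ly5.2 recipients. All donor-derived blood cells of a recipient therefore descend from 1 stem cell, while the competitor marrow and surviving host cells also make blood. The labels give no ages. Cells were enriched for c-Kit and sorted one by one on surface markers (CD201, CD150, CD48, Sca-1, c-Kit and lineage markers) or on GFP, and their RNA was counted near the 3' end by a modified Smart-seq2 method. The names of the cells hold a library and a cell number but no sample, so no month, tissue, sort gate or donor origin could be attached to a cell, and no comparison between months was made. The whole table was read as 1 pooled sample.

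The 67 libraries used held 22 to 92 cells and 1665151 to 26184494 counts each. After removal of cells with under 1000 genes counted or over 10% mitochondrial counts, 4185 of 4271 cells remained, with a median of 122013 counts and 4186 genes. Procr, which encodes the stem cell surface protein CD201, had at least 1 count in 3263 cells (Procr+ cells below), and these had a median of 133165 counts against 73874 in the 922 cells without one. Intervals below are exact 95% Poisson intervals for summed counts and exact 95% binomial intervals for shares. They cover counting error only: amplified copies are not independent molecules, and a library is no replicate of a labelled condition. No p-value was computed.

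In the integrated stress response, kinases that sense amino acid shortage, misfolded protein, double-stranded RNA or haem shortage phosphorylate the translation factor eIF2. Protein synthesis then falls in general, while a few messenger RNAs with upstream open reading frames, Atf4 and Atf5 among them, are translated more. The transcription factor ATF4 enters the nucleus and binds C/EBP-ATF elements in genes for amino acid supply, redox balance and cell death. HSCs are known for low rates of protein synthesis and for sensitivity to errors in it. Since ATF4 is controlled largely at translation, the level of its messenger RNA is not a measure of the amount of protein.

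The promoter windows of the members in RefSeq (GRCm38.p6, 250 bases before to 50 after each annotated start, 11 windows for 10 genes) were searched for the C/EBP-ATF element TGATGNAA on both strands. It was found in 4 of the 10 members, Trib3, Nupr1, Chac1 and Asns, and in 3.97% of the 32851 windows of all genes. The cAMP response element TGACGTCA, whose letters read the same on both strands and which no match of the first motif can equal, was found in Ppp1r15a alone among the members and in 1.79% of all windows. The matches are shown because they separate the members that hold the element bound by ATF4 and its partners from those that do not hold these letters in the window. Each stretch is written 5′ to 3′ along the strand of its gene, with the matched letters in capitals.
Trib3 (chr2:152344028-152344057, minus strand): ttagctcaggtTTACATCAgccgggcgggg
Nupr1 (chr7:126625562-126625591, minus strand): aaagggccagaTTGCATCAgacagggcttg
Chac1 (chr2:119351038-119351067, plus strand): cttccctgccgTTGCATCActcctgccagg
Asns (chr6:7693214-7693243, minus strand): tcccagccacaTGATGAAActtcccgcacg
Ppp1r15a (chr7:45526262-45526291, minus strand): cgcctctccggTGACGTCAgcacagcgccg
In Trib3, Nupr1 and Chac1 the element lies on the opposite strand and so appears as its reverse complement. The match lies 14 bases after the RefSeq start of Trib3, and 110, 193 and 23 bases before those of Nupr1, Chac1 and Asns, counted to the first capital. The AP-1 site TGANTCA, with C or G at N, was found in Ddit3 alone among the members and in 5.20% of all windows. A match is a run of letters and not a measured site, and its absence from a window says nothing about the factor.

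By the GENCODE mouse release M21 annotation of GRCm38, Atf4 (chromosome 15, 80255184 to 80257541), Trib3, Nupr1, Chac1, Asns and Ddit4 overlap no other annotated gene. Ddit3 (chromosome 10, 127290774 to 127296288) overlaps Mars, the methionyl-tRNA synthetase gene, and Gm4189 on the other strand and has a second entry of the same name. Atf5 overlaps Nup62 and Il4i1, and Ppp1r15a overlaps Tulp2, each on the other strand, and Sesn2 overlaps Gm12981 on its own. The sources used here do not say if strand was used in counting, so in these 4 genes reads of an overlapping gene cannot be told apart from their own.

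The 10 genes were counted in very different shares of Procr+ cells. Atf4, the central transcription factor, had a summed level of 237 CPM (its counts per 1000000 counts of the cells summed; interval 236 to 239) and a count in 88.3% of cells. Its level over the 58 libraries with at least 20 Procr+ cells had a median of 237 CPM, a lowest value of 122 and a highest of 511. No library lacked Atf4, and the middle of the libraries lay near the pooled value. Atf5, a related factor that is likewise controlled at translation, was at 3.33 CPM with a count in 9.01% of cells, and 6 of the 58 libraries held no count of it. Its library median was 2.05 CPM and its highest value 19.0.

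Among the genes downstream, Ddit3 encodes CHOP, the factor linked to cell death under lasting stress. It was at 43.7 CPM and counted in 39.3% of cells, with library values from 9.54 through a median of 41.2 to 122 CPM. Trib3, a pseudokinase induced by ATF4 and CHOP, was at 29.6 CPM and counted in 28.8% of cells, with library values from 1.43 through 28.9 to 66.3 CPM. Each gene was thus without a count in most cells, and 17.8% of Procr+ cells had Trib3 at 50 CPM or more. Nupr1, a small stress-induced chromatin-associated protein, was at 237 CPM and counted in 74.0% of cells.

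Nupr1 also differed most plainly between libraries. Its library median was 232 CPM and its highest value 473, but it was at 0.374 CPM in library Lib19 (1 of 23 Procr+ cells with a count, 4.35%, interval 0.110 to 21.9%) and at 7.40 CPM in library Lib23 (11 of 70 cells, 15.7%). These 2 libraries stood below all others. Their cells had medians of 91514 and 40128 counts, both under the median of all Procr+ cells, and the sample behind them is not known.

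Asns, the asparagine synthetase, was at 27.9 CPM with a count in 28.2% of Procr+ cells and library values from 0 through 27.0 to 112 CPM. Chac1, which degrades glutathione and is among the most strictly stress-induced genes of the pathway, was at 0.495 CPM with a count in 41 of 3263 cells (1.26%), and 35 of 58 libraries held none. In Procr+ cells 1 cell gave 12.7% of the Chac1 counts. Chac1 and Atf5 were therefore too sparse for conclusions about single cells, and their values below are descriptions only.

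Sesn2, a leucine-binding restraint on mTORC1 signalling, was at 17.3 CPM and counted in 21.1% of cells, with library values from 0.374 through 16.2 to 34.1 CPM. Ddit4, also a restraint on mTORC1 and induced by glucocorticoid and low oxygen as well, was at 19.3 CPM and counted in 42.5% of cells, with library values from 1.65 through 17.3 to 46.3 CPM. Ppp1r15a encodes GADD34, which directs a phosphatase to eIF2 and so ends the response. It was at 263.5 CPM and counted in 81.1% of cells, and its library values ran from 60.2 through 243 to 1000.1 CPM. The scatter between libraries was thus wide for each of these genes.

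**Figure D1:**
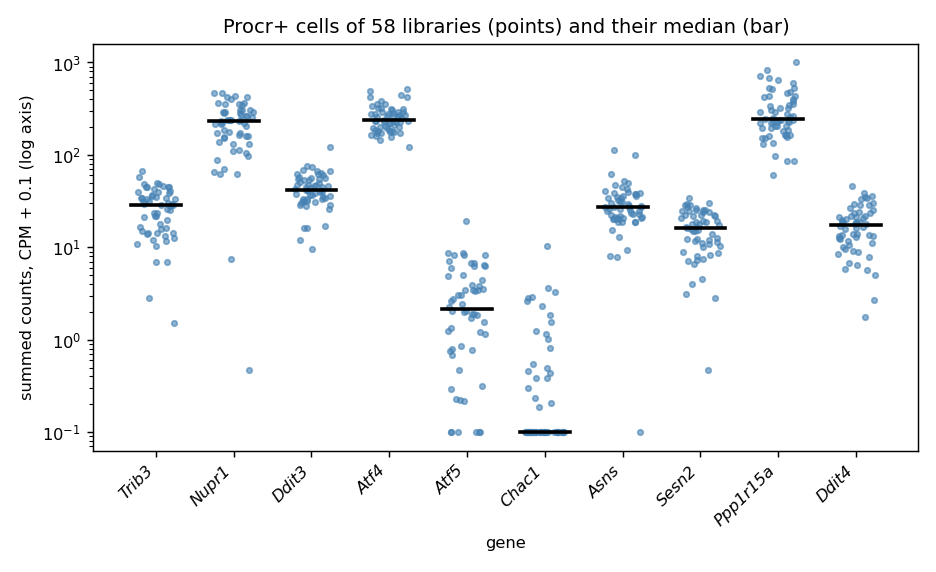
Level of each gene in the Procr+ cells of 58 libraries with at least 20 such cells; each point is 1 library, the bar is the median of the libraries, and the vertical axis is the summed-count CPM plus 0.1 on a log scale. Nupr1 has 2 libraries far below the others (0.374 and 7.40 CPM), and for Chac1 the median lies at 0.

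Correlations between members from cell to cell were low within Procr+ cells. Of the 45 pairs, 0 reached a Pearson r of 0.2 (log2(CPM + 1), each library's mean subtracted, n = 3263 cells, which share library, depth and amplification). The median was 0.01, the lowest value −0.05 (Ddit3 with Atf5) and the highest 0.10 (Ppp1r15a with Ddit4). The pair of Atf4 and Ppp1r15a had an r of 0.10 and Trib3 with Nupr1 0.09, while Atf4 with Ddit3, 2 genes of 1 known cascade, had 0.01. Trib3 with Ddit3 had an r of 0.00. In sparse counts such weak values are no finding in either direction.

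Other gene lists were measured in the same way in the same cells. Among genes counted in at least 10% of Procr+ cells, the median r within the list was 0.44 for 23 genes of G2 and M phase, 0.27 for 20 genes of S phase and 0.19 for 14 immediate early genes. For the 8 members that pass the same minimum it was 0.02, with 0 of 28 pairs at 0.2. The G2/M genes were counted in a median of 24.0% of cells, against 40.9% for these 8 members. The part of sparsity in the low values of the members was not tested. The median r was 0.07 within 12 aminoacyl-tRNA synthetases, 0.07 within 9 genes of amino acid synthesis and 0.07 within 18 genes of the unfolded protein response. It was 0.05 within 14 stem cell genes and 0.04 within 6 genes of amino acid transport. Other lists were as low as the members: 0.03 within 9 stress regulators and within 9 p53 targets, and 0.02 within 15 genes for eIF2 and its kinases. Within 8 genes of low oxygen and glucocorticoid it was 0.02 as well.

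**Figure D2:**
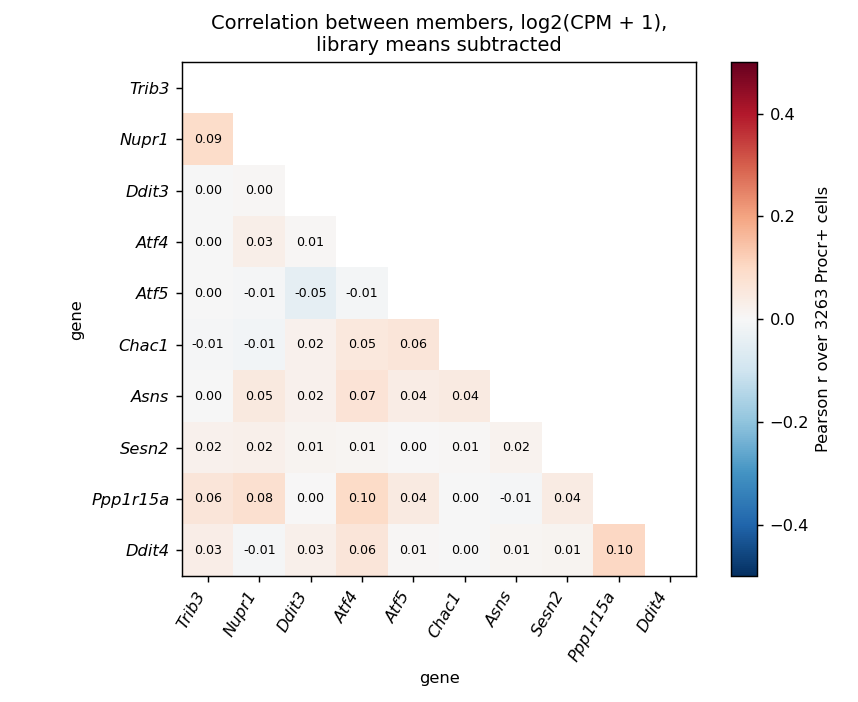
Pearson r of each pair of members over 3263 Procr+ cells, on log2(CPM + 1) with library means subtracted; both axes list the 10 genes and the colour runs from −0.5 to 0.5. All 45 values lie between −0.05 and 0.10.

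Shares of cells with a count gave a small difference for some pairs and overlapping intervals for others. Nupr1 was counted in 82.6% of the 941 cells with Trib3 (interval 80.0 to 84.9%) and in 70.6% of the 2322 cells without it (68.7 to 72.4%). Each cell was then thinned to 30000 counts, which makes the total counts of the cells equal and left out 293 shallower Procr+ cells. After this, these shares were 66.4% (62.6 to 70.1%) and 57.9% (55.8 to 59.9%). Trib3 was counted in 20.1% of thinned cells with Ddit3 (17.5 to 22.8%) and in 22.2% of those without (20.4 to 24.1%). Before thinning, Ddit3 was counted in 40.5% of cells with Trib3 and 38.8% of those without. The intervals of the Trib3 and Nupr1 pair did not overlap after thinning, and those of the Ddit3 and Trib3 pair did. Ppp1r15a was counted in 72.7% of thinned cells with Atf4 and 63.8% of those without (82.8 and 68.2% before thinning), again without overlap. These shares pool libraries, which differ in the level of each gene, so overlap or its absence does not show a relation within libraries. Within libraries, r was above 0 in 39 of 58 for Trib3 with Nupr1. It was above 0 in 28 of 58 for Trib3 with Ddit3 and in 46 of 58 for Atf4 with Ppp1r15a.

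The number of members at 50 CPM or more was counted in each Procr+ cell. Chac1 reached that level in 0.460% of these cells and Atf5 in 1.90%. The share that the frequencies of the single genes would give by themselves was not computed. At least 5 of the 10 members reached 50 CPM in 264 of 3263 Procr+ cells (8.09%, interval 7.18 to 9.08%). The share was 7.10% in the median library and ran from 0 (6 libraries) to 29.4% (the highest of 58). The commonest number was 3 members (975 cells), 577 cells had 4, just outside the limit, and 216 had 5, just inside. No cell had more than 7, which 13 cells reached. Cells past the limit had a median of 119858 counts and the others 134346.

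The strongest single relation of a member was that of Ppp1r15a with immediate early genes, which are transcribed within minutes of a stimulus and also during tissue handling. The 3 genes most like Ppp1r15a were Junb (r of 0.35), Fos (0.35) and Dusp1 (0.30), against 0.10 for its nearest member. Its r with Fos was above 0 in 57 of 58 libraries with at least 20 cells, with a median of 0.38, and with Junb in 58 of 58. Ddit4 was most like Junb (0.14), Ier2 (0.13) and Zfp36 (0.12), and Atf4 most like Fos (0.14), Nr4a1 (0.12) and Junb (0.12). Fos and Junb encode parts of the AP-1 factor, Dusp1 a phosphatase of MAP kinases, and Zfp36 a protein that destabilises messenger RNAs.

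To put this on a scale of levels, a split chosen after these values had been seen, Procr+ cells were cut into 4 equal groups by the summed CPM of the 17 immediate early genes, and the highest (815 cells) was set against the lowest (816 cells). Ppp1r15a was at 616 CPM (interval 611 to 621) in the highest group and at 72.2 CPM (70.8 to 73.6) in the lowest, a log2 ratio of 3.08, and it was higher in 39 of 39 libraries with at least 5 cells of both. Ddit4 was at 30.4 CPM against 12.1 (log2 ratio 1.27, higher in 31 of 39 libraries). Atf4 was at 320 CPM against 180 (0.83, higher in 34 of 39 libraries). Trib3 had a pooled log2 ratio of 0.53 but was higher in 19 and lower in 19 of 38 libraries. The split restates the r values above on another scale and is no separate result: 4 of the 8 members with at least 10 CPM in either group lay at or past 0.5, beside 10.4% of all genes at that level. Nupr1 (0.03), Ddit3 (−0.17), Asns (−0.03) and Sesn2 (−0.09) did not. The group rich in immediate early RNA had a median of 102883 counts a cell and the other 158361. The part of depth and of handling in these values was not tested.

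The other members were most like genes of different kinds. Trib3 was most like Sult1a1 (r of 0.15), Mllt3 (0.15) and Ifitm1 (0.14), and Nupr1 most like Sult1a1 (0.16), Cavin2 (0.15) and Apoe (0.14). Mllt3 encodes a chromatin reader that maintains HSCs. With the mean of 14 stem cell genes, Nupr1 had an r of 0.20 and Trib3 0.18, against 0.02 for Ddit3 and −0.03 for Chac1. Asns was most like Rrm2 (0.14), Asf1b (0.13) and Ccna2 (0.12), which act in DNA replication, nucleosome assembly and the cell cycle. Its r with Rrm2 was above 0 in 47 of 57 libraries. Ddit3 and Sesn2 had no gene above 0.08: Ddit3 was nearest to Akap10, Tmem106a and Stk3, and Sesn2 to Mrpl44, Alg9 and Pebp1.

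The few counts of Chac1 and Atf5 were higher in Procr+ cells with plasma cell genes, a description over sums of few cells. Chac1 was most like Mzb1 (r of 0.20), Jchain (0.16) and Fam46c (0.14), all abundant in antibody-secreting cells, and Atf5 was most like Fam46c (0.11), Ranbp10 (0.09) and Cebpb (0.09). Of the 41 Procr+ cells with a Chac1 count, 9 had at least 3 plasma cell markers at 50 CPM, whereas 43 of all 3263 Procr+ cells did (1.32%). In those 43 cells Chac1 was at 14.6 CPM, Atf5 at 26.2 and Asns at 205 CPM. In the other Procr+ cells Chac1 was at 0.357, Atf5 at 3.11 and Asns at 26.1 CPM. The 43 cells had Jchain at 23250 CPM and Procr at 98.0 CPM, against 258.5 CPM of Procr in all Procr+ cells. Jchain had a count in 29.5% of all Procr+ cells, and whether the Procr counts of these 43 cells are their own was not tested.

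The other targets of ATF4 were set against the mean of the members. Of 52 genes in 4 lists (amino acid synthesis, amino acid transport, tRNA synthetases and stress regulators), 36 had a count in at least 10% of Procr+ cells, and 4 of these reached an r of 0.1 with the mean of the 10 members. Of 9411 genes counted in as many cells, 1.72% did, a smaller share than 4 of 36. The median r was 0.05 for the 36 targets and 0.04 for all genes. The 4 were Cebpb (0.13), a transcription factor and partner of ATF4, Slc3a2 (0.12), the heavy chain of amino acid exchangers, Sqstm1 (0.12), an autophagy receptor, and Trib1 (0.12), a pseudokinase. After thinning to 30000 counts, 0 of the 33 targets still counted in enough cells did, and 0.542% of 8298 genes did.

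Within the lists, 0 of 9 genes of amino acid synthesis reached 0.1; Pck2 (0.06), Phgdh (0.05), Aldh18a1 (0.04) and Mthfd1l (0.04) came nearest. Of 6 transport genes 1 did, and Slc38a2 (0.07), Slc1a5 (0.05) and Slc7a5 (0.04) did not. Of 12 tRNA synthetases 0 did, with Cars (0.09), Iars (0.07), Gars (0.07) and Lars (0.07) nearest. Of 9 stress regulators 3 did, and Gadd45a (0.08) did not. Of 15 genes for eIF2 and its kinases 0 did, with Eif2ak4 (0.07), Eif2b2 (0.07), Impact (0.06) and Oma1 (0.05) nearest. Among 18 genes of the unfolded protein response, Pdia3 (0.12), Dnajb9 (0.11) and Herpud1 (0.10) did and Xbp1 (0.10) stayed just under. Plk2 (0.15) did among 9 p53 targets, with Cdkn1a (0.10), Mdm2 (0.10) and Bax (0.09) just under, and Tsc22d3 (0.10) among 8 genes of low oxygen and glucocorticoid, with Txnip (0.08), Per1 (0.07) and Bnip3 (0.06) under it.

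Single members were also set against the mean of each list. This is another measure than the r of single list genes above, and the values cannot be compared between them. Asns had an r of 0.20 with the mean of the tRNA synthetases, 0.15 with amino acid synthesis and 0.11 with amino acid transport, and Atf4 had 0.16, 0.11 and 0.14. Trib3 had values under 0 with all 3 (−0.05, −0.06 and −0.04). The lists share depth with the members: the log2 total of a cell had an r of 0.12 with Atf4, 0.10 with Asns and 0.00 with Trib3.

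The genes with the highest r with the mean of the 10 members were Junb (0.22), Ier2 (0.20), Dusp1 (0.20), Fos (0.19), Egr1 (0.18), Jun (0.17), Zfp36 (0.17), Nr4a1 (0.17), Cavin2 (0.16) and Trim47 (0.16), of which 8 are in the immediate early list. The lowest belonged to Tmsb10 (−0.09), Tespa1 (−0.07), Actb (−0.07), Wdr89 (−0.06) and Cd34 (−0.06). When Ppp1r15a was left out of the mean, the median r of the 14 immediate early genes was 0.08 in place of 0.17, and 4 in place of 12 reached 0.1. Cavin2 (0.15) and Trim47 (0.13) stood nearly where they had been. The r values of Junb and Fos were then 0.11 and 0.07.

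**Figure D3:**
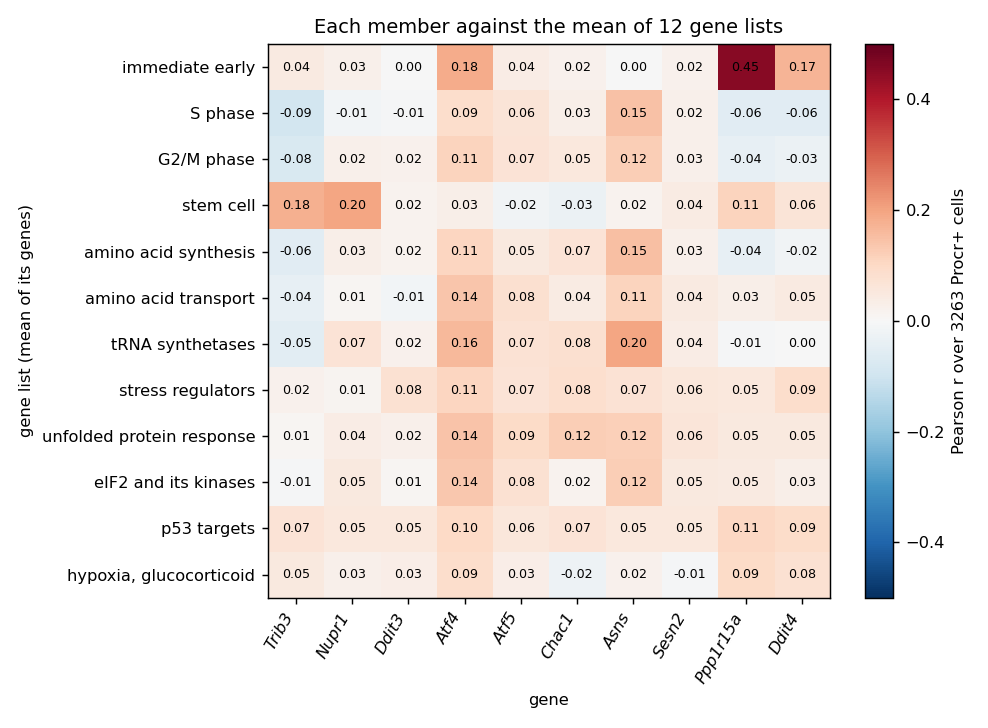
Pearson r of each member (columns) with the mean of each of 12 gene lists (rows) over 3263 Procr+ cells, on log2(CPM + 1) with library means subtracted. Ppp1r15a stands out with the immediate early genes (0.45), Trib3 (0.18) and Nupr1 (0.20) with the stem cell genes, and Asns (0.20) with the tRNA synthetases.

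Members differed in their relation to cell division. Procr+ cells were cut into 4 equal groups by the summed CPM of 21 S phase and 27 G2/M genes, and the most cycling group (815 cells, at or above about 1583 CPM) was set against the least cycling (816 cells, up to about 655 CPM). The order is a range and not a cell type: 188 cells lay within 10% of the upper limit and 325 within 10% of the lower. Mki67, a gene of dividing cells that is in the lists, was at 139 CPM in the most and 3.11 CPM in the least cycling group.

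Of the 8 members with at least 10 CPM in either group, 5 were lower in the most cycling group by a log2 ratio of at least 0.5 and 0 were higher. Among 8843 genes 11.0% were lower and 11.8% higher by as much, 22.8% in all. The median log2 ratio was −0.59 over the 8 members and −0.03 over all genes. These ratios are of summed counts, and r from cell to cell was weaker. With the means of the S and G2/M lists, Trib3 had an r of −0.09 and −0.08. Ppp1r15a had −0.06 and −0.04 and Ddit4 −0.06 and −0.03. Nupr1 and Ddit3 each had −0.01 and 0.02, so neither showed a relation on this measure. Sesn2 had 0.02 and 0.03, Atf4 0.09 and 0.11, and Asns 0.15 and 0.12. Most cycling cells had a median of 166474 counts and least cycling cells 123371.

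Trib3 had the widest gap. Its level was 48.2 CPM (interval 46.9 to 49.5) in the least cycling group, 37.3 and 28.9 in the 2 between, and 11.7 (11.2 to 12.3) in the most cycling one, so that it was lower in each group than in the one before. The log2 ratio was −1.95, and Trib3 was lower in 40 of the 50 libraries that had 5 or more cells in each group. After thinning to 30000 counts, 27.5% of the least cycling cells (24.3 to 30.9%) and 12.2% of the most cycling cells (9.91 to 14.8%) had a Trib3 count, against 33.2 and 22.3% before thinning.

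The other 4 members past the limit differed less. Nupr1 was at 293 CPM in the least and 174 CPM in the most cycling group (log2 ratio −0.75, lower in 33 of 51 libraries). Ppp1r15a was at 308 and 185 CPM (−0.73, lower in 36 of 51). Ddit3 was at 53.4 and 34.5 CPM (−0.62, lower in 38 of 51), and Ddit4 at 22.6 and 14.9 CPM (−0.57, lower in 36 of 51). Computed from cells thinned to 30000 counts, the log2 ratios were −0.81 for Nupr1, −0.73 for Ppp1r15a, −0.57 for Ddit3 and −0.48 for Ddit4, so that Ddit4 no longer passed the limit. The shares of cells with a count differed less. Ddit3 was counted in 32.3% of the least and 31.0% of the most cycling thinned cells, Nupr1 in 58.7 and 55.9%, Ppp1r15a in 71.7 and 67.1%, and Ddit4 in 26.9 and 23.0%, all with overlapping intervals. Before thinning the shares were 39.3 and 41.7% for Ddit3, 75.1 and 71.8% for Nupr1, 80.1 and 81.0% for Ppp1r15a, and 42.2 and 40.4% for Ddit4. Calls were lost under other settings: Nupr1 had −0.33 in the 794 Procr+ cells with under 3 markers of every lineage, Ddit3 −0.47 with equal weight per cell and −0.44 with groups set within libraries, and Ppp1r15a −0.45 with the G2/M list alone. Ddit4 had −0.20 with the G2/M list alone, −0.43 with Procr at 50 CPM or more and −0.39 with a pseudocount of 10 CPM. Sesn2 lay just under the limit, at 19.5 and 13.6 CPM (−0.50 when rounded, lower in 32 of 51 libraries). It passed with the S list alone (−0.61) and had −0.07 in the 794 cells.

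Atf4 and Asns had pooled ratios above 0 that did not reach the limit. Atf4 was at 214 CPM in the least and 246 CPM in the most cycling group (log2 ratio 0.20, higher in 28 of 51 libraries), and was counted in 74.8% (71.5 to 77.9%) and 85.1% (82.3 to 87.6%) of thinned cells. Asns was at 25.0 and 30.7 CPM (0.29, higher in 32 of 51) and was counted in 17.5% (14.9 to 20.5%) and 23.7% (20.7 to 26.9%) of thinned cells. Before thinning the shares were 85.4 and 92.8% for Atf4 and 23.3 and 36.6% for Asns. For both, the shares after thinning did not overlap in their intervals. The log2 ratio from thinned counts was 0.08 for Atf4 and −0.04 for Asns, and in the 794 Procr+ cells with under 3 lineage markers Asns had −0.11, so the direction of Asns was not stable. Atf5 (3.00 and 3.27 CPM) and Chac1 (0.704 and 0.466 CPM) were under 10 CPM in both groups.

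Other lists moved beside them. Of 14 stem cell genes 7 were lower in the most cycling group by at least 0.5 and 0 higher, Mllt3 by a log2 ratio of −1.43 and Pdzk1ip1 by −1.01, and Procr itself was at 148 CPM against 343. Of 13 immediate early genes 9 were lower and 0 higher. Of 9 genes of amino acid synthesis 4 were higher and 0 lower, Mthfd1l by 1.35, while Phgdh (0.47), Pck2 (−0.05) and Aldh18a1 (−0.02) were not. Of 12 tRNA synthetases 3 were higher, Gars by 0.52, and 0 lower, and of 6 transport genes 2 were higher, Slc7a5 by 1.75. Among 9 stress regulators Trib1 (−0.97) and Sqstm1 (−0.70) were among 3 lower and Gadd45a (0.85) was the 1 higher. The part of stem cell identity in the difference of Trib3 was not tested.

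**Figure D4:**
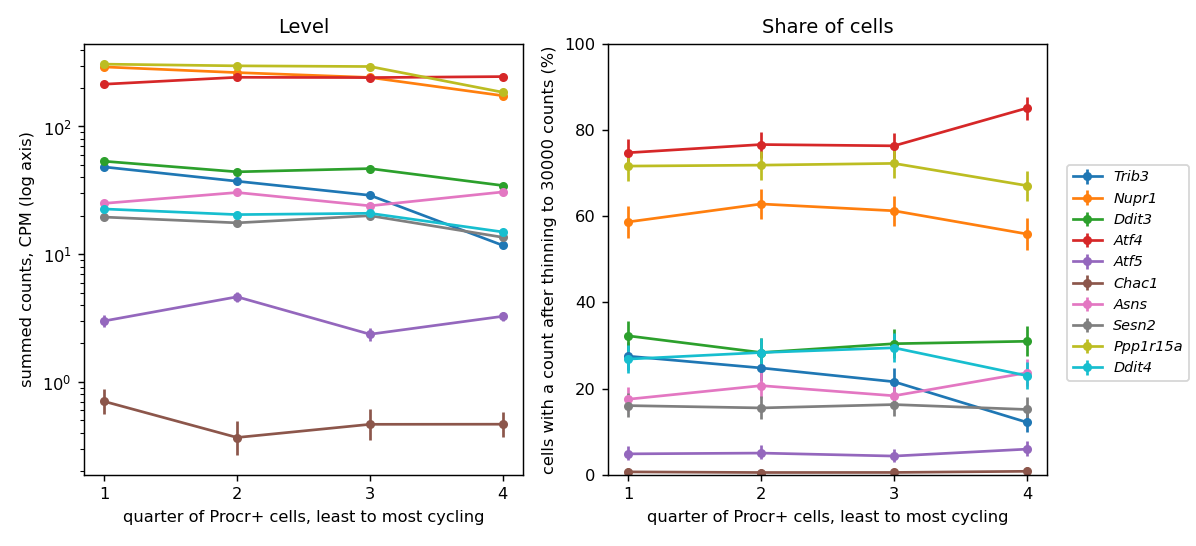
Left, level of each member in 4 equal groups of Procr+ cells ordered from least to most cycling (horizontal axis), as summed-count CPM on a log axis with exact 95% Poisson intervals; right, the share of cells with a count after thinning to 30000 counts, with exact 95% binomial intervals. Trib3 goes from 48.2 to 11.7 CPM and from 27.5 to 12.2% of cells.

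Procr+ cells were also split by genes of surface proteins used to sort stem cells and progenitors. In 155 cells with a Slamf1 count and no Cd34 count, as in long-term HSCs, Nupr1 was at 466 CPM (interval 456 to 476) and Trib3 at 41.1 CPM (38.1 to 44.3). In 1236 cells with counts of both Cd34 and Flt3, as in multipotent progenitors, Nupr1 was at 189 CPM (187 to 190) and Trib3 at 22.9 CPM (22.3 to 23.5). In the same order Ppp1r15a was at 383 and 240.0 CPM, Sesn2 at 25.2 and 15.5, Ddit4 at 24.5 and 18.8 and Ddit3 at 44.6 and 38.0 CPM. These members were higher in the first cells, but the share of all genes that were higher there was not computed. The values therefore describe the members alone. Asns was at 18.9 and 27.9 CPM and Atf4 at 219 and 246 CPM, both higher in the second. The first cells had a median of 85696 counts and the second 157779, and absence of a Cd34 count is more frequent in shallow cells.

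Lineage-marker cells were those with no Procr count and at least 3 markers of 1 list at 50 CPM or more, given to the list with the largest share of its markers. This gave 722 cells in 9 classes of at least 20 cells, and 194 cells without Procr had no class. The marker lists are not exclusive: 1901 of 3263 Procr+ cells (58.3%) had 3 markers of the list that holds MHC class II genes and 913 (28.0%) had 3 of the erythroid list, whose globin genes are widely counted. The 214 cells of the MHC class II list, written as a dendritic cell list, had Siglech in 4.21% of cells but Mecom at 93.0 CPM and Hlf at 145 CPM, genes of stem and progenitor cells. They are therefore called MHC class II-marker cells. In the 91 erythroid-marker cells Klf1, the master factor of red cell genes, was counted in 36.3%. The plasma-marker cells carried their defining gene Jchain in 100% of cells.

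A member was counted as apart from Procr+ cells at a log2 ratio of at least 1, if at 10 CPM in either. The median gene was itself off 0, at −0.51 in plasma-marker, −0.32 in B-marker, −0.19 in primary granule-marker, −0.16 in megakaryocyte- and T-marker, −0.15 in neutrophil-marker and −0.11 in macrophage-marker cells, and the ratios below are not corrected for it. Asns and Atf5 were highest in the 56 plasma-marker cells. Asns was at 200 CPM (interval 188 to 212.5), counted in 40 of 56 cells, against 27.9 CPM in Procr+ cells, a log2 ratio of 2.80, and its values in the 3 libraries with at least 5 such cells were 70.3, 280 and 347 CPM. Atf5 was at 37.5 CPM (32.5 to 43.2) against 3.33, a log2 ratio of 3.15, but was counted in 9 of 56 cells, and 39.8% of its counts came from 1 cell. Atf4 was at 473 CPM (455 to 492), counted in 54 of 56 cells, with a log2 ratio of 0.99. Chac1 had 20 counts in 3 cells (3.83 CPM). Ddit4 was lower, at 4.41 CPM (log2 ratio −1.91). In all 3 of 9 members were apart, where 47.7% of all genes were.

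Plasma-marker cells, which as antibody-secreting cells are known for a large endoplasmic reticulum, also had higher levels of many tRNA synthetase, amino acid synthesis and unfolded protein response genes. Of 12 tRNA synthetases 7 were higher and 0 lower by at least 1, of 11 genes of amino acid synthesis 6 were higher and 1 lower, and of 18 genes of the unfolded protein response 17 were higher and 0 lower. Of 6 genes of amino acid transport 2 were higher and 0 lower, and of 10 stress regulators 3 were higher and 1 lower. Among all genes 12.7% were higher and 35.0% lower by as much. Named after their values were seen, Pycr1, a proline synthesis enzyme, was at 208 CPM against 4.08 in Procr+ cells, Slc3a2 at 2894 CPM against 262 and Herpud1 at 2630 CPM against 137.

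Of the other members in plasma-marker cells, Nupr1 (119 CPM) drew 88.2% of its counts and Trib3 (22.4 CPM) 76.9% from 1 cell. Weighted equally per cell, Nupr1 had a log2 ratio of −2.45 in place of −0.99 and Trib3 −1.74 in place of −0.39, and Atf4 1.04, so that 6 members were apart.

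The erythroid-marker cells had the other high level of Asns, 133.5 CPM (127 to 140), counted in 36 of 91 cells, with a log2 ratio of 2.22. It was higher in 4 of 6 libraries with at least 5 cells of both kinds, and its library values ran from 0 through a median of 64.1 to 305 CPM. Trib3 was at 5.76 CPM (−2.18), Sesn2 at 4.82 (−1.65), Nupr1 at 86.9 (−1.43), Ddit4 at 7.34 (−1.28) and Ppp1r15a at 129 CPM (−1.02, lower in 6 of 6 libraries). In all 6 of 8 members were apart, 1 higher and 5 lower. Of all genes 19.1% were apart, 7.35% higher and 11.8% lower. Weighted equally per cell, or with a pseudocount of 10 CPM, 3 members were apart. The value of Nupr1 moved most: 1 cell gave 46.4% of its counts, and its ratio was −0.66 with equal weight, −3.40 in the 72 cells with at least 4 markers and −5.11 in the 37 cells found without globin and MHC class II genes. With equal weight Sesn2 had −0.76 and Ddit4 −0.36, and Ddit4 had −0.27 after thinning. Without library Lib115, which gave 14 of the cells, Ppp1r15a had −0.99.

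In the 179 neutrophil-marker cells Nupr1 and Trib3 were low. Nupr1 was at 18.7 CPM (16.9 to 20.6; log2 ratio −3.60, lower in 4 of 5 libraries) and Trib3 at 5.00 CPM (4.09 to 6.05; −2.35), with 48.1% of the Trib3 counts in 1 cell and a lower value in only 2 of 5 libraries. Ddit4 was at 7.64 CPM (−1.23, but −0.99 with equal weight, −0.37 after thinning and −0.73 with a pseudocount of 10 CPM). Atf4 was at 456 CPM (447 to 465), a log2 ratio of 0.94, higher in 3 of 5 libraries. However, 1 library gave 50.3% of these Atf4 counts, and the median over 8 libraries with at least 5 such cells was 226 CPM. The Atf4 ratio was 0.56 with equal weight per cell and 0.89 without library TP57. The 3 members apart compare with 36.2% of all genes. Library TP57 gave 43 of the cells and 94.7% of the Sesn2 counts: without it Sesn2 had a log2 ratio of −2.84 in place of −0.17, and Ddit4 one of −0.85. Of 12 stress regulators 7 were higher by at least 1, Cebpb at 264.5 CPM against 15.3 in Procr+ cells, Trib1 at 197 against 12.5 and Gadd45a at 111 against 10.6, and 1 was lower. Of 9 genes of amino acid synthesis 0 were higher and 2 lower, among them Pck2 (log2 ratio −1.92), and of 12 tRNA synthetases 0 were higher and 1 lower. Among all genes 17.4% were higher and 18.8% lower by as much. Cebpb is itself a gene of granulocyte development.

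In the 45 cells with primary granule markers, which are granulocyte and monocyte progenitors' genes, 4 of 8 members were apart and all 4 were lower. Of all genes 24.6% were apart and 17.8% were lower. Nupr1 was at 34.0 CPM (log2 ratio −2.77), Trib3 at 5.43 (−2.25), Ddit4 at 3.47 (−2.18) and Sesn2 at 5.28 CPM (−1.54). Trib3 drew 94.4% of its 36 counts from 1 cell and had −0.56 after thinning, and Sesn2 had −0.84 with a pseudocount of 10 CPM.

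In the 46 macrophage-marker cells Ddit4 was at 74.2 CPM (68.2 to 80.6), a log2 ratio of 1.89, but 98.0% of its counts came from library TP56, which gave 18 of the cells. Without that library the log2 ratio was −2.07. Trib3 had 3 counts in this class (0.399 CPM, 0.0823 to 1.17), and was higher than in Procr+ cells in the 1 library that gave a comparison. The 2 of 8 members apart compare with 39.2% of all genes, and 4 were apart when cells were weighted equally.

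The 41 megakaryocyte-marker cells had 3 of 8 members apart, all lower, where 21.3% of all genes were apart and 16.0% were lower. Trib3 was at 0.880 CPM (0.323 to 1.92; log2 ratio −4.03), Ddit4 at 2.35 CPM (−2.60) and Nupr1 at 56.3 CPM (−2.05). Without library Lib22, which gave 12 of the cells, Nupr1 had −0.71 (−0.94 with all libraries after thinning) and Asns, at 34.9 CPM with it, had 1.36.

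Several members were lower in lymphoid cells, while Ddit3 and Atf4 were not apart in either class. Ddit3 was at 55.2 CPM in B-marker and 69.3 CPM in T-marker cells, against 43.7 CPM in Procr+ cells. Atf4 was at 231 and 265 CPM in the same order, against 237 CPM. In the 26 B-marker cells Trib3 had 0 counts, at least 20.4-fold lower than in Procr+ cells when set against 3 counts over the class, and 3 of 26, the limit that a count of 0 allows, is 11.5% of cells with a count (13.2% by the exact interval). Asns had 2 counts there (0.968 CPM, 0.117 to 3.50) and Sesn2 1 count (0.484 CPM, 0.0122 to 2.70). Nupr1 was at 87.6 CPM (log2 ratio −1.42), yet it was counted in 2 of 26 cells and 1 cell gave 99.4% of the counts; without library Lib1, which gave 8 of the cells, the ratio was −0.89. Ppp1r15a was at 80.8 CPM (−1.69). In all 5 of 8 members were apart, all lower, where 47.1% of all genes were apart and 32.0% were lower.

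In the 24 T-marker cells 6 of 8 members were apart, all lower, where 43.9% of all genes were apart and 28.1% were lower. Nupr1 had 5 counts (2.05 CPM, 0.666 to 4.78; log2 ratio −6.28), Trib3 2 counts (0.820 CPM, 0.0993 to 2.96) and Sesn2 3 counts (1.23 CPM, 0.254 to 3.60). Ppp1r15a was at 94.3 CPM (−1.47), Ddit4 at 4.92 (−1.77) and Asns at 11.9 CPM (−1.16, −0.98 without library Lib1, which gave 7 of the cells, and −0.79 with a pseudocount of 10 CPM). For Ddit4 1 cell gave 83.3% of the counts, and its ratio was −0.84 with equal weight, −0.97 with a pseudocount of 10 CPM and −0.15 when MHC class II and globin genes were left out of the marker lists.

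The MHC class II-marker cells had 0 of 8 members apart, where 5.49% of all genes were. Trib3 was at 20.7 CPM (log2 ratio −0.50), Nupr1 at 132 (−0.84), Sesn2 at 8.21 (−0.99) and Ddit4 at 9.22 CPM (−0.99). Sesn2 and Ddit4 thus lay just short of the limit, and with Procr at 50 CPM or more both passed it (−1.05 each).

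Across all 9 classes Trib3 was, as pooled, below its level in Procr+ cells in each, and apart in 7 of them. Within libraries that gave a comparison it was lower in 12 of 15 for MHC class II-marker and 4 of 5 for erythroid-marker cells. It was lower in 2 of 2 for plasma- and for primary granule-marker, 2 of 5 for neutrophil-marker and 0 of 1 for macrophage-marker cells. Megakaryocyte-, B- and T-marker cells had no such library. The share of all genes lower in as many classes was not computed. In plasma-marker cells, where 3 of 56 cells had a count and 1 gave 76.9% of them, its ratio of −0.39 was closer to 0 than that of the median gene (−0.51), while equal weight per cell gave −1.74 and thinning −1.10. Its order ran from 22.4 CPM in plasma-marker and 20.7 in MHC class II-marker cells, whose intervals overlap, through 5.76 (erythroid), 5.43 (primary granule) and 5.00 (neutrophil), which overlap too, to under 1 CPM in megakaryocyte-, T-, macrophage- and B-marker cells. Ddit3 was apart in 0 of 9 classes, between 42.2 CPM in macrophage-marker and 69.3 CPM in T-marker cells, and Atf4 in 0 of 9 as pooled, between 149 CPM in macrophage-marker and 473 CPM in plasma-marker cells. With equal weight per cell Atf4 was apart in both of these classes, at −1.07 and 1.04. Cells of a class came from few libraries, so class and library are only partly separated.

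**Figure D5:**
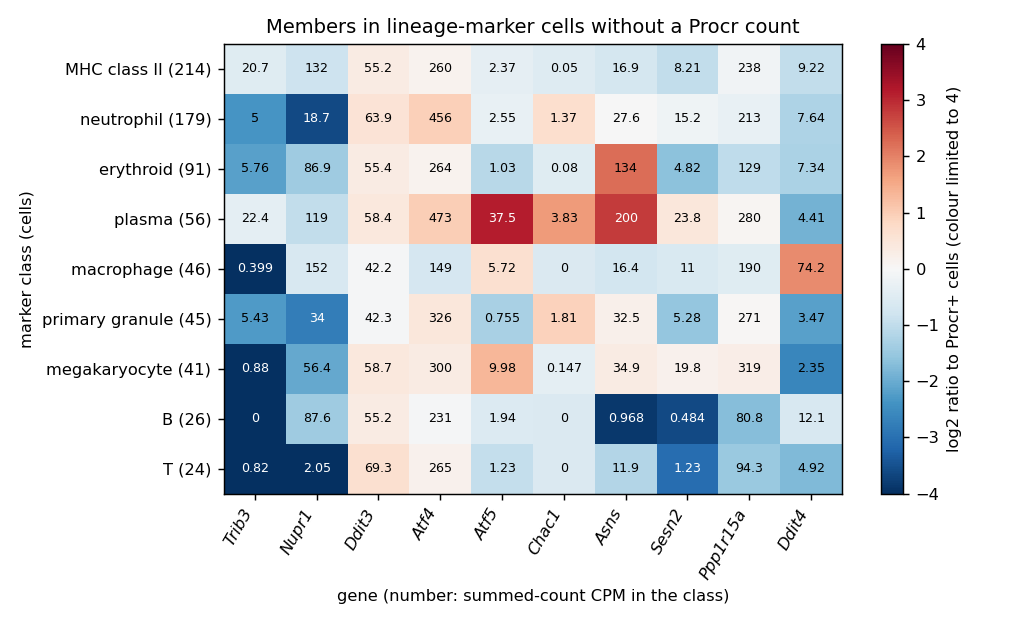
Members (columns) in 9 classes of lineage-marker cells without a Procr count (rows, with the number of cells); the number is the summed-count CPM and the colour the log2 ratio to Procr+ cells, limited to 4 in either direction. As pooled over libraries, Trib3 is below its Procr+ level in each of the 9 classes, in plasma-marker cells with 76.9% of the counts from 1 cell. Asns is highest in plasma-marker (200 CPM) and erythroid-marker cells (133.5 CPM).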

How the data were processed

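The deposited table holds whole-number counts, not normalized by the authors, for each gene symbol in each cell. HTSeq 0.9.1, HISAT2 2.1.0 and Trimmomatic 0.36 are named, with GRCm38, in the submitters' processing notes; if these counts are of reads or of molecules was not stated there. The 17 columns of 1 further library were not used. Counts were scaled to CPM per cell or per summed group, and 1 CPM was added before log2 values were taken, under Python 3.11.15 with numpy 2.4.6, scipy 1.17.1 and pandas 2.3.3. Cells were sorted singly and no doublet caller was run. A class was formed in cells without a Procr count from at least 3 markers at 50 CPM, ties left out; 6 basophil- or mast-marker cells were too few. The scripts were tested on simulated data. The members and gene lists were chosen with earlier results of these data known. Named besides the members are the 10 genes of highest and 5 of lowest r with their mean, up to 4 genes of largest r of each list, and the 3 nearest genes of each member. Alternatives covered cell filters, depth, weights, pseudocounts and marker rules. Values of 2 genes of these lists are not reported here.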

Additional observations from a re-analysis of the deposited data

How the results depend on the processing

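The 0 of 45 member pairs at an r of 0.2 stood at 0 under every alternative run, with no subtraction of library means, rank correlation, a pseudocount of 10 CPM, thinning, other Procr and gene limits and without the largest library; the highest single value was 0.16 (Atf4 with Ppp1r15a, no subtraction). The 5 members apart between the most and least cycling groups became 3 with the G2/M list alone, and Trib3 kept a log2 ratio between −2.09 and −1.29 in every alternative. The 4 ATF4 targets at 0.1 became 0 after thinning. The share of Procr+ cells with several members high was 16.7% at 20 CPM, 2.24% at 100 CPM, 6.94% after thinning and, in an alternative chosen after seeing the data, 6.30% in the 794 Procr+ cells with under 3 markers of every lineage. Members apart became 2 in MHC class II-marker cells with Procr at 50 CPM or with at least 4 markers, 3 in erythroid-marker cells with equal weight or a pseudocount of 10 CPM, 4 in macrophage-marker cells with equal weight or thinning, and in plasma-marker cells 5 with Procr at 50 CPM and 6 with equal weight or thinning. Ddit4 in macrophage-marker cells reversed, to −2.07, without library TP56. The cause of these changes was not tested, except that leaving out a library or changing the limit or weight alters the cells or counts compared. The other 92 of 107 values of these results stayed near those reported. For counts this meant within 1.5 times, and for the share of cells with several members high within its interval of 7.18 to 9.08%. Cycling groups set within libraries and marker lists without MHC class II and globin genes were also chosen after seeing the data. Chac1 and Atf5, at under 10 CPM in Procr+ cells, were not compared between cycling groups. No paired analysis was possible because no cell is tied to a labelled sample.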
